A study of Mus musculus with 2 samples.

Results

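The cells described here are barcodes with at least 2 unique molecular identifiers (UMIs, each the count of 1 captured transcript) of Adarb2 and at least 1 UMI of Gad1 and Gad2 together. Adarb2 encodes an RNA-binding protein of the adenosine deaminase family that marks cortical interneurons from the caudal ganglionic eminence (CGE), and Gad1 and Gad2 encode the enzymes that make GABA. The rule also asked for at least 500 detected genes, at most 10% mitochondrial UMIs, at most 4 UMIs of Sst, and no UMI of Lhx6, Mki67, Top2a or Pdgfra. It kept 185 barcodes in replicate 1 and 171 in replicate 2, or 356 of the 22193 barcodes that passed the gene and mitochondrial filters. Because these genes chose the cells, their levels are a description of the choice. The cells are called Adarb2+ Gad+ cells below, since the markers that the rule did not use go partly against the name CGE-derived interneurons.

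They come from 2 droplet libraries of wild-type mouse pallium, replicates of a single group, in which cells born around embryonic day 12 were tagged with EdU, a thymidine analogue taken up by dividing cells. Pups were sampled at postnatal day 3, pallial tissue was pooled and dissociated, and propidium iodide-negative cells among the brightest 10% for EdU were sorted. The labels do not say whether the libraries came from separate pools of pups. Any p-value thus speaks only of how differences between classes varied across these libraries, a spread that may be technical. The cells were set against Sp8 neuroblasts, barcodes with Sp8 and Gad1 or Gad2 but no Adarb2 (544 and 614), and, more briefly, against Lhx6+ Gad+ cells, which have no Adarb2, Sp8, Mki67, Top2a or Pdgfra (33 and 33).

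As background, inhibitory neurons of the forebrain arise below the cortex, in the ganglionic eminences, and migrate tangentially. The CGE gives rise to cortical interneurons that come to express Vip, Lamp5, Cck or Reln, and that carry the transcription factors Prox1 and Nr2f2 and the serotonin receptor gene Htr3a. The lateral eminence gives rise to neuroblasts of the olfactory bulb, marked by Sp8, Meis2, Tshz1, Pbx3 and Etv1, and to striatal projection neurons, marked by Isl1, Drd1 and Drd2. The medial eminence (MGE) gives rise to Lhx6 interneurons that express Sst or Pvalb.

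The Adarb2+ Gad+ cells made up 1.65% of barcodes in replicate 1 (exact Clopper-Pearson 95% interval 1.42 to 1.90%) and 1.56% in replicate 2 (1.34 to 1.81%). The mean share was 1.60% ± 0.0623 (SD, n = 2), and the cells were 7.71% and 6.75% of all barcodes with a Gad1 or Gad2 UMI. The 2 intervals overlap, so the shares of the libraries were not distinguishable at this depth. Such intervals cover counting error only. Their median depth was 4465 UMIs in replicate 1 and 5182 in replicate 2, against 7898.5 and 8654 UMIs in Sp8 neuroblasts. When the non-dividing, Pdgfra, Lhx6 and Sst criteria were also asked of the Sp8 neuroblasts, 202 and 210 remained, with median depths of 5415 and 5860 UMIs. The libraries had 62 barcodes in common, of which 0 and 2 belonged to the Adarb2+ Gad+ cells.

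The Adarb2 threshold cut a continuous distribution. Among Gad+ barcodes that met every other criterion, 645 and 616 had no Adarb2 UMI, 115 and 106 had 1, and 68 and 52 had exactly 2. The median was 3 Adarb2 UMIs in both libraries, the highest counts were 17 and 22, and 9 and 13 cells had 10 or more. Just inside the threshold, at 2 UMIs, Pbx3 stood at 455 and 398 CPM, the usual scaling by the summed UMIs of a class in a library,, against 272 and 319 CPM just outside it, at 1 UMI. Nr2f2 stood at 61.3 and 55.5 CPM inside and 34.0 and 41.3 CPM outside, and Erbb4 at 158 and 185 CPM inside and 104 and 97.4 CPM outside. The cells with a single Gad UMI numbered 49 and 28, and 58 and 41 further barcodes met all criteria but had no Gad UMI. Pbx3 stood at 641 and 532 CPM at 1 Gad UMI and 590 and 464 CPM at none. In both libraries Pbx3, Nr2f2 and Erbb4 were thus lower just outside the Adarb2 threshold than just inside it, and were still present there.

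**Figure D1:**
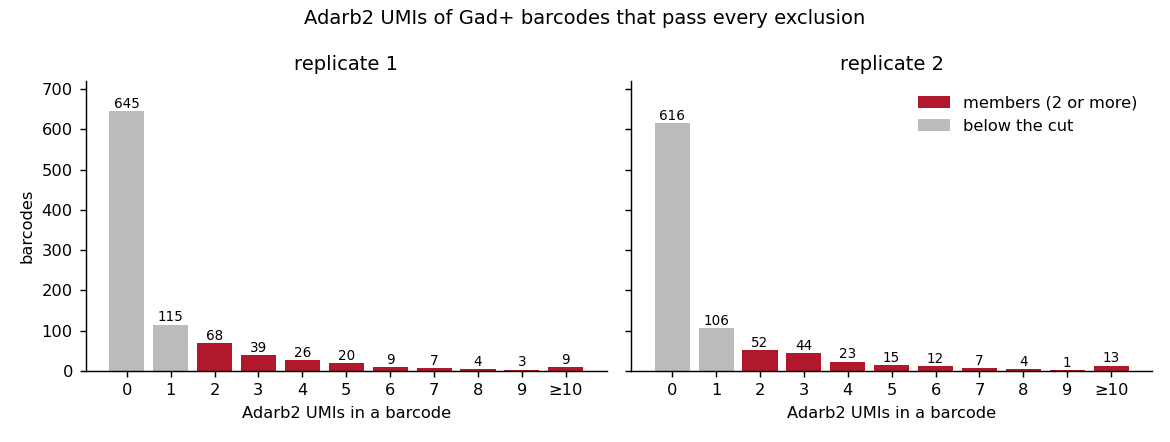
Number of barcodes (y axis, linear) by Adarb2 UMIs per barcode (x axis) in each library, for Gad+ barcodes that met the other criteria. Red bars are the Adarb2+ Gad+ cells and grey bars the barcodes below the threshold: 115 and 106 barcodes lie 1 UMI below it, and 68 and 52 sit on it.

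The markers that the rule did not use gave a mixed picture. Of the CGE genes, Nr2f2 stood at 98.8 and 80.0 CPM and Prox1 at 84.6 and 114 CPM in the 2 libraries. Cnr1, the cannabinoid receptor gene, stood at 192 and 213 CPM, Htr3a at 44.7 and 39.4 CPM, and Npas1 at 38.8 and 28.2 CPM. Of the genes of CGE subtypes, Vip, Lamp5 and Sncg were at or near 0: Vip had 4.70 and 2.25 CPM, Lamp5 2.35 and 0 CPM, and Sncg 0 CPM in both libraries. Some genes listed for olfactory bulb neuroblasts stood above each CGE gene named so far: Meis2 at 1845 and 2047 CPM, Pbx3 at 457 and 506 CPM, and Tshz1 at 352 and 410 CPM. This ranking does not hold for all CGE transcription factors listed. Nfib stood at 1642 and 1922 CPM, Nfix at 1399 and 1351 CPM and Dlx1 at 584 and 698 CPM, above Pbx3 and Tshz1. Others of the bulb list were lower. Etv1 stood at 186 and 223 CPM, Prokr2 at 95.2 and 139 CPM, Zic1 at 16.5 and 24.8 CPM, and Zic2 at 9.41 and 15.8 CPM. Foxp2, not on that list, stood at 120 and 205 CPM. Th, the dopamine synthesis gene of some bulb neurons, had 0 CPM in both. Sp8 itself, on which the rule made no demand, was detected in 78 (42.2%) and 77 (45.0%) of the cells.

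Counted per cell after each cell was thinned to 2000 UMIs, which left 143 and 152 cells, 16.1% and 16.4% carried at least 2 of 11 CGE markers outside the rule. In Sp8 neuroblasts thinned alike that share was 3.10% and 2.69%, and in Pdgfra-expressing resting oligodendrocyte precursors (OPCs) it was 7.20% and 6.65%. At least 2 of 7 olfactory bulb markers were carried by 76.2% and 78.3% of Adarb2+ Gad+ cells, by 84.1% and 83.3% of Sp8 neuroblasts, and by 17.9% and 18.3% of OPCs. More of these cells met the bulb condition than the CGE condition, but the 2 panels are unlike in level. The bulb panel holds Meis2, at 1845 and 2047 CPM, and Sp9, at 467 and 565 CPM. Sp9 is also on the list of CGE transcription factors, and stood at 266 and 519 CPM in Lhx6+ Gad+ cells. The CGE panel holds Vip, Lamp5 and Sncg, which were at or near 0. The 2 shares therefore do not rank one identity over the other. The CGE share was above that of OPCs and of Sp8 neuroblasts by the rule. Those Sp8 neuroblasts include dividing and Pdgfra-expressing barcodes, and no share is given here for the ones that met the further criteria. The Adarb2+ Gad+ cells are given no other cell type name.

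Levels of markers of other cells were as follows. The 6 striatal markers summed to 188 and 246 CPM, with at least 3 such UMIs in 19 and 34 cells. In Sp8 neuroblasts they summed to 85.0 and 73.5 CPM, and in Lhx6+ Gad+ cells to 116 and 74.2 CPM. Foxp2, which is among them, stood at 120 and 205 CPM in Adarb2+ Gad+ cells. There Isl1 (0 CPM in both libraries), Drd1 and Drd2 (0 and 1.13 CPM each) were at or near 0. Astroglial markers summed to 337 and 391 CPM, with at least 3 such UMIs in 9 and 15 cells. Oligodendrocyte lineage markers summed to 195 and 178 CPM, with at least 3 such UMIs in 9 and 10 cells, and MGE markers outside the rule to 216 and 243 CPM, with at least 3 in 22 and 30 cells. Glutamatergic markers summed to 75.2 and 56.3 CPM, Cajal-Retzius markers to 50.6 and 24.8 CPM and endothelial markers to 0 and 1.13 CPM. Microglial markers summed to 128 CPM in replicate 1 and 1.13 CPM in replicate 2, and 53 of those UMIs lay in a single barcode of replicate 1. Scrublet marked 7 and 6 of the Adarb2+ Gad+ cells as doublets, and they were kept.

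**Figure D2:**
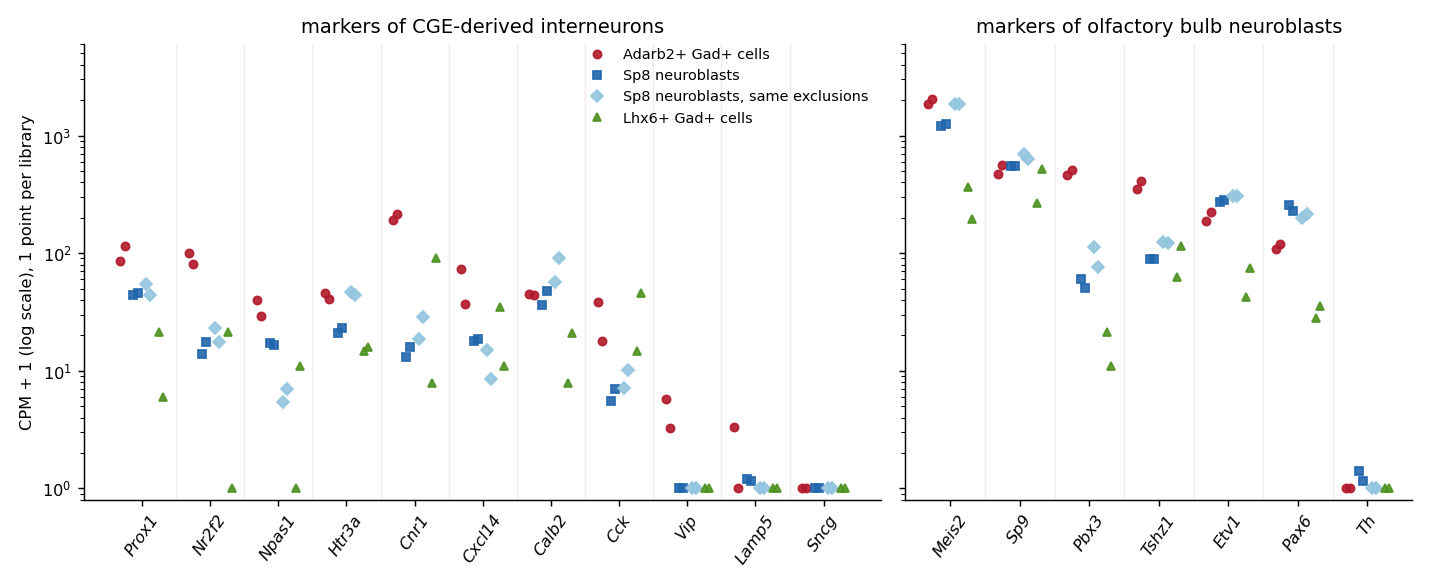
Level of each marker (CPM + 1, log axis), with a point per library, in Adarb2+ Gad+ cells, Sp8 neuroblasts under both definitions and Lhx6+ Gad+ cells. Among Adarb2+ Gad+ cells Meis2, Pbx3 and Tshz1 lie above 350 CPM and Vip, Lamp5 and Sncg below 5 CPM.

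Set against Sp8 neuroblasts, the Adarb2+ Gad+ cells carried more of the CGE transcription factors Nr2f2, Prox1 and Npas1, of Cnr1 and of the neuregulin receptor gene Erbb4. They also carried more of the lateral eminence genes Pbx3, Tshz1, Prokr2 and Foxp2, and of receptor, channel and synaptic genes. They carried less of Sox6, Pax6, Zic1 and Zic2. Cell-cycle genes were lower too, but the rule sets Mki67 and Top2a to 0 in these cells and not in the Sp8 neuroblasts. That fall is therefore in part a description of the choice. In edgeR's quasi-likelihood test on counts summed per library and class, 1229 of 9310 genes were higher (13.2%) and 1393 were lower (15.0%) at an adjusted p of 0.05. Against Sp8 neuroblasts under the same exclusions, 558 of 9022 genes were higher (6.18%) and 471 lower (5.22%). DESeq2's Wald test on the first contrast called 417 higher and 489 lower. Of the higher genes, 478 were called under both definitions, which is 38.9% of the first list and 85.7% of the second. Of the lower genes, 348 were, or 25.0% and 73.9%.

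The Sp8 neuroblasts as the rule defines them hold dividing and Pdgfra-expressing barcodes, with Mki67 at 314 and 406 CPM, Top2a at 626 and 662 CPM and Pdgfra at 132 and 150 CPM, all of which the rule for Adarb2+ Gad+ cells sets to 0. The 10 largest falls were all mitosis genes, on which the choice of non-dividing cells bears, and none of them was tested under the same exclusions. Hmmr, Melk, Ncapg, Rtkn2 and Kif14 had no UMI in the Adarb2+ Gad+ cells, at least 50.4-fold, 30.0-fold, 29.3-fold, 12.6-fold and 12.3-fold lower when 3 counts over both libraries are taken as the floor. Of 18 S phase genes all 18 fell, and under the same exclusions 9 of 15 fell. Mcm5, a helicase subunit of DNA replication, stood at 12.9 and 3.38 CPM against 91.2 and 86.3 CPM in Sp8 neuroblasts, and at 48.4 and 48.3 CPM under the same exclusions (log2 fold change -2.63). Of 8 oligodendrocyte lineage genes 7 fell against Sp8 neuroblasts by the rule, and 0 of 6 changed under the same exclusions. These falls moved with the exclusions, so calls of gene lists below are given under both definitions where measured. Shares of single cells are set against Sp8 neuroblasts by the rule alone.

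Among 14 CGE transcription factors, 5 were higher and 3 lower, and the median log2 fold change was 0.19. Under the same exclusions 6 rose, 4 fell and the median was -0.07. Over all genes tested the median was 0.0084 by the rule and 0.0075 under the same exclusions. Of all genes 13.2% were higher and 15.0% lower by the rule, and 6.18% and 5.22% under the same exclusions. Counts of this and later lists against Sp8 neuroblasts are to be read beside those shares, which some of them do not exceed. Nr2f2 (COUP-TFII, chr7:70351944-70366735, minus strand, GRCm38) stood at 98.8 and 80.0 CPM against 12.9 and 16.7 CPM in Sp8 neuroblasts. The log2 fold change was 2.54 ± 0.209 (SE; adjusted p = 1.13e-11), and 2.14 under the same exclusions. Prox1 (chr1:190118035-190170714, minus strand) stood at 84.6 and 114 CPM against 43.0 and 44.9 CPM, a log2 fold change of 1.14 ± 0.155 (adjusted p = 4.48e-07), and 0.99 under the same exclusions. For both genes the libraries of the 2 classes did not overlap.

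Npas1, a transcription factor of CGE interneurons, stood at 38.8 and 28.2 CPM against 16.1 and 15.4 CPM, a log2 fold change of 1.04 ± 0.313 (adjusted p = 0.0111). Under the same exclusions the Sp8 neuroblasts had 4.40 and 6.03 CPM and the log2 fold change was 2.56. OPCs carried Npas1 too, with a UMI in 17.8% and 16.5% of thinned cells against 6.29% and 3.95% of Adarb2+ Gad+ cells. Without replicate 1 of the Adarb2+ Gad+ cells the Npas1 difference against Sp8 neuroblasts by the rule was 0.82 and was not called. Zeb2 and Nr2f1 were higher under both definitions, by 0.61 and 0.56 on the log2 scale against Sp8 neuroblasts by the rule, and neither was called without replicate 2 of the Adarb2+ Gad+ cells (0.55 and 0.32). Dlx2, which acts across GABAergic lineages, was lower under both definitions (log2 fold changes -0.48 and -0.60), and was not called without replicate 1 (-0.39).

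The subtype list holds 18 genes of Vip, Lamp5, Cck and Reln interneurons, of which 9 were measured. Against Sp8 neuroblasts 4 were higher and 0 lower, and under the same exclusions 4 were higher and 1 lower. Cnr1 (chr4:33924593-33948831, plus strand), which marks Cck basket cells among cortical interneurons, stood at 192 and 213 CPM against 12.1 and 14.9 CPM. Its log2 fold change was 3.87 ± 0.168 (adjusted p = 1.06e-18), and 3.08 under the same exclusions. Cxcl14, a chemokine gene of superficial CGE interneurons, stood at 72.9 and 36.0 CPM against 17.0 and 17.7 CPM, and Cck at 37.6 and 16.9 CPM against 4.56 and 6.0 CPM. Both were called under both definitions, and both calls against Sp8 neuroblasts by the rule were lost without replicate 1 of the Adarb2+ Gad+ cells (log2 fold changes 1.07 and 1.35, against 1.56 and 2.29 with it).

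Htr3a, which encodes the ionotropic serotonin receptor subunit that defines the CGE class in cortex, depended on the comparison. It stood at 44.7 and 39.4 CPM against 20.02 and 22.1 CPM in Sp8 neuroblasts by the rule, a log2 fold change of 0.96 ± 0.238 (adjusted p = 0.00223), and was not called without replicate 1 of the Adarb2+ Gad+ cells (0.82) or without barcodes with glial UMIs (0.47). Sp8 neuroblasts under the same exclusions had 45.8 and 43.0 CPM, and the log2 fold change was -0.14 and not called. Reln stood at 45.9 and 23.7 CPM and was called under the same exclusions alone (1.28), where the Sp8 neuroblasts had 26.4 and 2.26 CPM. Calb2, the calretinin gene, stood at 43.5 and 42.8 CPM against 34.9 and 46.2 CPM, with no call against Sp8 neuroblasts by the rule and a log2 fold change of -0.82 and a call under the same exclusions.

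Of 10 measured olfactory bulb neuroblast genes, 4 were higher and 5 lower, and 3 were higher and 5 lower under the same exclusions. The bulb and CGE genes are not fully separate sets. Sp9, one of the bulb markers counted per cell above, is also on the list of CGE transcription factors, and was called lower under the same exclusions alone (log2 fold change -0.42). Pbx3 (chr2:34171457-34373142, minus strand), a homeobox cofactor, stood at 457 and 506 CPM against 58.9 and 49.5 CPM, and at 112 and 75.4 CPM in Sp8 neuroblasts under the same exclusions. Its log2 fold change was 3.12 ± 0.105 (adjusted p = 1.44e-21), and 2.32 under the same exclusions. Tshz1, a zinc-finger gene needed by bulb neuroblasts, stood at 352 and 410 CPM against 87.6 and 87.3 CPM (log2 fold change 2.09, and 1.58 under the same exclusions). Prokr2, the prokineticin receptor gene that guides neuroblasts into the bulb, stood at 95.2 and 139 CPM against 14.9 and 12.7 CPM (3.06, and 1.68). These genes of the list were thus higher in the Adarb2+ Gad+ cells than in the cells chosen by Sp8.

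Other genes of that list went the other way. Pax6 stood at 107 and 118 CPM against 256 and 226 CPM (log2 fold change -1.13, and -0.94 under the same exclusions), and Zic2 at 9.41 and 15.8 CPM against 41.0 and 39.3 CPM (-1.70, and -2.04). Both are transcription factors of bulb periglomerular and granule cell lineages. Etv1 and Zic1 were lower under both definitions as well. Meis2 (chr2:115863064-116065839, minus strand) was higher only against Sp8 neuroblasts by the rule, at 1845 and 2047 CPM against 1199 and 1260 CPM, a log2 fold change of 0.63, not called without replicate 2 of the Adarb2+ Gad+ cells (0.44). Under the same exclusions the Sp8 neuroblasts had 1868 and 1857 CPM and the log2 fold change was 0.00.

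**Figure D3:**
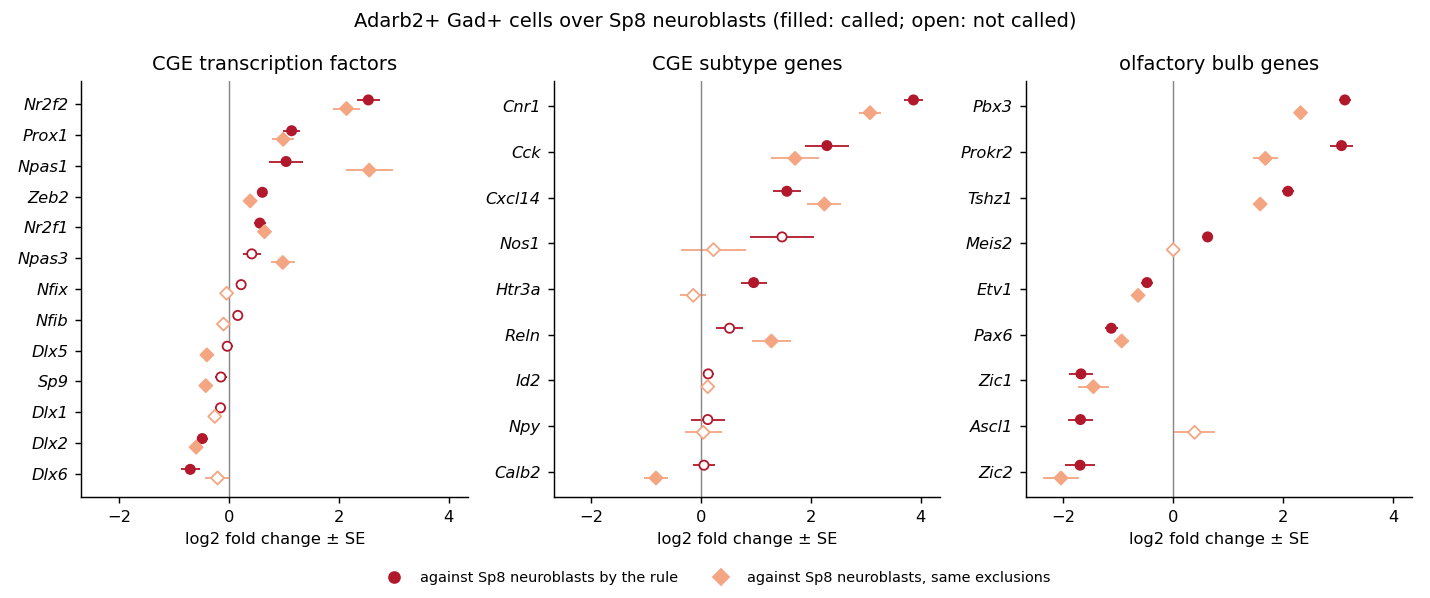
Log2 fold change (x axis) of Adarb2+ Gad+ cells over Sp8 neuroblasts, with SE bars, for genes of the CGE transcription factor, CGE subtype and olfactory bulb lists. Circles are against Sp8 neuroblasts by the rule and diamonds against those under the same exclusions, filled where the adjusted p was at most 0.05: Nr2f2, Prox1, Cnr1, Pbx3, Prokr2 and Tshz1 lie right of 0 and filled under both, and Htr3a and Meis2 under the rule alone.

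Foxp2 (chr6:14901349-15441977, plus strand), a forkhead factor of several ventral forebrain lineages, stood at 120 and 205 CPM against 26.6 and 22.4 CPM (log2 fold change 2.71 ± 0.171, adjusted p = 1.62e-14, and 2.45 under the same exclusions). Maf, which acts in MGE interneurons and stands on the MGE list, stood at 96.4 and 60.8 CPM against 4.76 and 12.5 CPM (3.10 ± 0.263, adjusted p = 2.39e-11, and 3.49). Sox6, the other MGE-list gene singled out here, fell to 31.7 and 36.0 CPM, against 112 and 125 CPM in Sp8 neuroblasts (-1.84, and -1.33). Of the 11 measured genes on the MGE list, 2 were higher and 1 lower, and 3 and 1 of 8 under the same exclusions, so most did not pass the test. Exons of Nr2f2, Prox1 and Maf overlap those of B130024G19Rik, Prox1os and Gm15655 on the opposite strand. The sources used here do not state whether counting used strand, so reads of these pairs may not be separated.

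Among the 10 genes with the largest rises and at least 20 CPM were Cpne4, Cnr1, Elmod1, Camk4, Foxp4, Pbx3, Maf, Prokr2 and Sfrp2, each called under both definitions. Cpne4, a calcium-dependent membrane-binding protein gene, stood at 34.1 and 20.3 CPM against 1.59 and 0.81 CPM (log2 fold change 4.41, and 2.75 under the same exclusions). Elmod1 stood at 91.7 and 91.2 CPM against 5.55 and 7.14 CPM (3.79, and 2.88). Sfrp2, a secreted Wnt inhibitor, stood at 95.2 and 73.2 CPM against 11.7 and 8.60 CPM (3.01, and 2.32).

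Among receptor and channel genes the share of higher genes can be read against 13.2% and 6.18% of all genes tested. Of 9 measured GABA receptor subunits, 7 were higher and 0 lower, and 6 and 0 under the same exclusions, with median log2 fold changes of 1.63 and 1.89. Gabra2, an alpha subunit, stood at 62.3 and 52.9 CPM against 10.1 and 12 CPM (log2 fold change 2.33 ± 0.279, adjusted p = 4.13e-08, and 2.31 under the same exclusions). Gabbr1, of the metabotropic receptor, was higher by 0.61 and 0.42 on the log2 scale, a call that was lost when either library of the Adarb2+ Gad+ cells was left out.

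Genes for making and moving GABA did not behave alike under the 2 definitions. Of 10 measured, 4 were higher against Sp8 neuroblasts by the rule and 0 under the same exclusions. Slc32a1, the vesicular GABA transporter gene, stood at 68.2 and 104 CPM against 30.9 and 37.3 CPM, a log2 fold change of 1.30. Under the same exclusions it was 0.34 and not called.

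Of the glutamate receptor subunits, 7 of 16 were higher and 1 lower, and 5 of 14 were higher and 0 lower under the same exclusions. Grin2b, the NMDA receptor subunit of young neurons, stood at 120 and 144 CPM against 35.7 and 35.4 CPM (log2 fold change 1.86, and 1.35 under the same exclusions). Of voltage-gated channel genes, 11 of 24 were higher and 1 lower, and 11 of 23 and 1. Scn3a, the sodium channel of immature neurons, stood at 70.5 and 94.6 CPM against 27.8 and 34.2 CPM (log2 fold change 1.38, and 1.09 under the same exclusions). Cacna2d2, an auxiliary calcium channel subunit, was the lower one, at 2.35 and 4.51 CPM against 10.5 and 18.2 CPM, a call lost without replicate 2 of the Adarb2+ Gad+ cells.

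Of 21 synaptic vesicle and release genes, 12 were higher and 1 lower, and 8 and 1 under the same exclusions. Syt1, the calcium sensor of transmitter release, stood at 105 and 90.1 CPM against 9.91 and 14.4 CPM (log2 fold change 2.93 ± 0.204, adjusted p = 1.87e-13, and 1.87 under the same exclusions). Syt11 was the lower one, at a log2 fold change of -0.36 under both, and lost its call when either library was left out. Of 16 synaptic adhesion genes, 7 were higher, and 6 under the same exclusions. Erbb4 (chr1:68032186-69108059, minus strand), through which neuregulins act on migrating interneurons, stood at 216 and 255 CPM against 30.1 and 31.6 CPM (2.90 ± 0.128, adjusted p = 1.66e-18, and 2.49).

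Of 21 migration and guidance genes, 10 were higher and 4 lower, and 6 and 0 under the same exclusions. Plxna4, a semaphorin co-receptor, stood at 166 and 237 CPM against 36.7 and 43.6 CPM (log2 fold change 2.29, and 1.61 under the same exclusions). Epha5, an ephrin receptor gene, stood at 286 and 336 CPM against 103 and 119 CPM (1.45, and 1.63). Of 13 cadherins and protocadherins, 5 were higher and 2 lower, and 6 and 0. Cdh8 led them, at 16.5 and 18.0 CPM against 2.38 and 2.60 CPM (2.72, and 2.12), and was not called without replicate 2 of the Adarb2+ Gad+ cells (2.47).

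Immature neuron genes turned with the definition. Against Sp8 neuroblasts by the rule 12 of 19 were higher and 2 lower, and under the same exclusions 2 were higher and 5 lower. Dcx, a microtubule-binding protein gene of migrating neurons, was called higher under both (log2 fold change 0.87 and 0.34), as was Nrep (1.25 and 0.63). Sox11, a transcription factor of newborn neurons, was lower under both (-0.32 and -0.42), though not without the library as a block (-0.31) or with either library left out. Tubb3 was higher against Sp8 neuroblasts by the rule (0.27) and lower under the same exclusions (-0.49). Of 21 nuclear respiratory chain genes, 0 were higher and 2 lower, and 0 and 4 under the same exclusions, and Cox5a was lower in both (-0.29 and -0.35), with the call likewise lost without the block (-0.29) or with either library left out. Of the 3 measured striatal genes, Foxp2 and Meis2 were higher, and Foxp2 alone under the same exclusions.

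**Figure D4:**
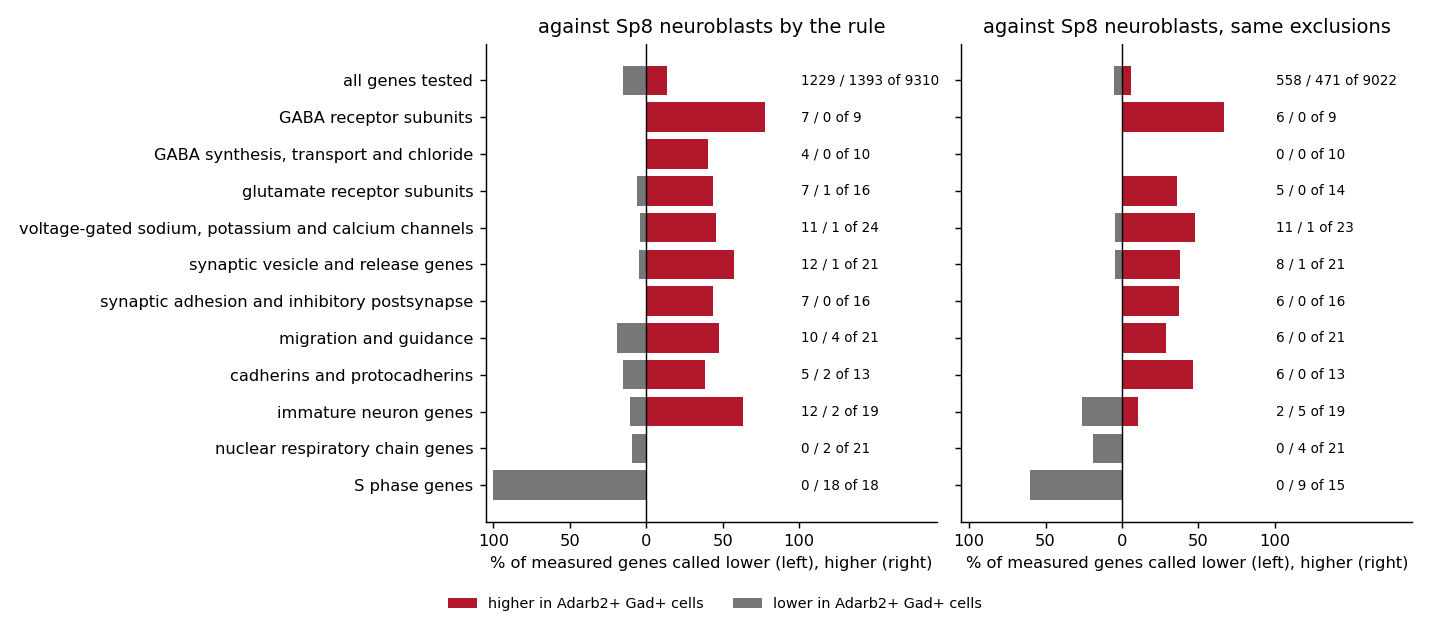
Percent of the measured genes of each list called higher (right) or lower (left) in Adarb2+ Gad+ cells than in Sp8 neuroblasts by the rule (left panel) and under the same exclusions (right panel), with counts beside the bars and all genes tested on top. GABA receptor subunits reach 7 of 9 and 6 of 9 higher, and S phase genes 18 of 18 and 9 of 15 lower.

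Markers of other cells moved with part of this contrast. All 4 measured microglial genes were called higher, yet C1qa stood at 98.8 and 1.13 CPM against 1.19 and 18.3 CPM in Sp8 neuroblasts, and its log2 fold change was -3.98 without replicate 1 of the Adarb2+ Gad+ cells. Of 9 astroglial genes, 0 were higher and 2 lower, and 0 and 0 under the same exclusions. Of 13 early response genes, 2 were higher and 5 lower, and 3 and 2. With the 3 GABAergic classes cleared of barcodes that held at least 3 astroglial or microglial UMIs, 2585 genes were called in all against 2622 with them.

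Detection in single cells shows how the sums arose, with the Sp8 neuroblasts taken by the rule alone. After thinning to 2000 UMIs, Cnr1 was detected in 18.2% and 16.4% of Adarb2+ Gad+ cells, against 1.94% and 2.02% of Sp8 neuroblasts and 2.12% and 2.49% of OPCs. Nr2f2 was detected in 16.8% and 13.2% of Adarb2+ Gad+ cells, against 2.71% and 2.86% of Sp8 neuroblasts and 2.21% and 2.68% of OPCs. Pbx3 was detected in 50.3% and 48.0%, against 13.4% and 8.42% of Sp8 neuroblasts and 3.53% and 3.06% of OPCs. Each of these shares was above that of OPCs, a class in which any UMI of these genes can be free RNA. Htr3a was detected in 6.99% and 7.24% of Adarb2+ Gad+ cells, against 5.43% and 4.04% of Sp8 neuroblasts, and in 0% and 0.191% of OPCs. Against Sp8 neuroblasts under the same exclusions, its summed level was not called different (log2 fold change -0.14).

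At least 1 of the 18 subtype genes was detected in 55.9% and 54.6% of thinned Adarb2+ Gad+ cells, against 39.5% and 41.8% of Sp8 neuroblasts by the rule. Among OPCs the share was 54.1% and 58.3%, so this share lay at the level of a class that is not neuronal. Id2, which the list holds and glia also express, had a UMI in 28.0% and 30.9% of Adarb2+ Gad+ cells and 39.3% and 45.1% of OPCs. Vip was detected in 0 of 143 and 0 of 152 thinned cells, which allows shares of up to 2.10% and 1.97% of cells with a UMI, and without thinning in 2 cells of each library.

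The cells differed in which genes they carried, and some carried genes of both of the following groups, which were chosen after the values had been seen. Without thinning, at least 2 of Tshz1, Pbx3, Foxp2 and Prokr2 were detected in 94 (50.8%) and 102 (59.6%) of the Adarb2+ Gad+ cells. At least 2 of Prox1, Nr2f2, Npas1 and Htr3a were detected in 41 (22.2%) and 38 (22.2%). Both conditions were met by 12 and 14 cells, which is 12.8% and 13.7% of the cells that met the first and 29.3% and 36.8% of those that met the second, and neither by 62 and 45. Among cells with none of the Tshz1 group, 30.6% (of 36) and 30.0% (of 30) had at least 2 of the Prox1 group. Among cells with at least 3 of the Tshz1 group, that share was 3.85% (of 52) and 9.52% (of 63). At 2000 UMIs the 2 conditions were met by 38.5% and 39.5% and by 6.99% and 4.61% of cells, and by 0 and 1 cells together.

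The levels in cells split by these conditions are a description with no test. The cells that met the Prox1 condition alone numbered 29 and 24, and those that met the Tshz1 condition alone 82 and 88. Cnr1 stood at 492 and 659 CPM on the Prox1 side and 87.1 and 28.4 CPM on the Tshz1 side. Reln, the extracellular protein of neurogliaform interneurons, stood at 151 and 124 CPM on the Prox1 side and 21.1 and 4.05 CPM on the Tshz1 side. Maf stood at 232 and 124 CPM on the Prox1 side and 34.3 and 14.2 CPM on the Tshz1 side, and Dner, a Notch ligand gene, at 156 and 217 CPM on the Prox1 side and 10.6 and 36.5 CPM on the Tshz1 side. Cnr1, Reln, Maf and Dner were thus at higher levels in the smaller group, in both libraries.

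Meis2 stood at 533 and 334 CPM on the Prox1 side and 3000 and 2933 CPM on the Tshz1 side, and Etv1 at 57.9 and 15.5 CPM on the Prox1 side and 298 and 318 CPM on the Tshz1 side. Syt6 had no UMI on the Prox1 side and 187 and 132 CPM on the Tshz1 side, and Mpped2 stood at 116 and 31.0 CPM on the Prox1 side and 663 and 624 CPM on the Tshz1 side. Erbb4 was present on both, at 237 and 396 CPM on the Prox1 side and 201 and 203 CPM on the Tshz1 side. Sp8 stood at 180 and 202 CPM on the Prox1 side and 145 and 134 CPM on the Tshz1 side. The rule thus took in cells with either set of genes. Of all Gad+ barcodes with both Tshz1 and Pbx3 (423 and 500), 78 and 87 were Adarb2+ Gad+ cells, or 18.4% and 17.4%.

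**Figure D5:**
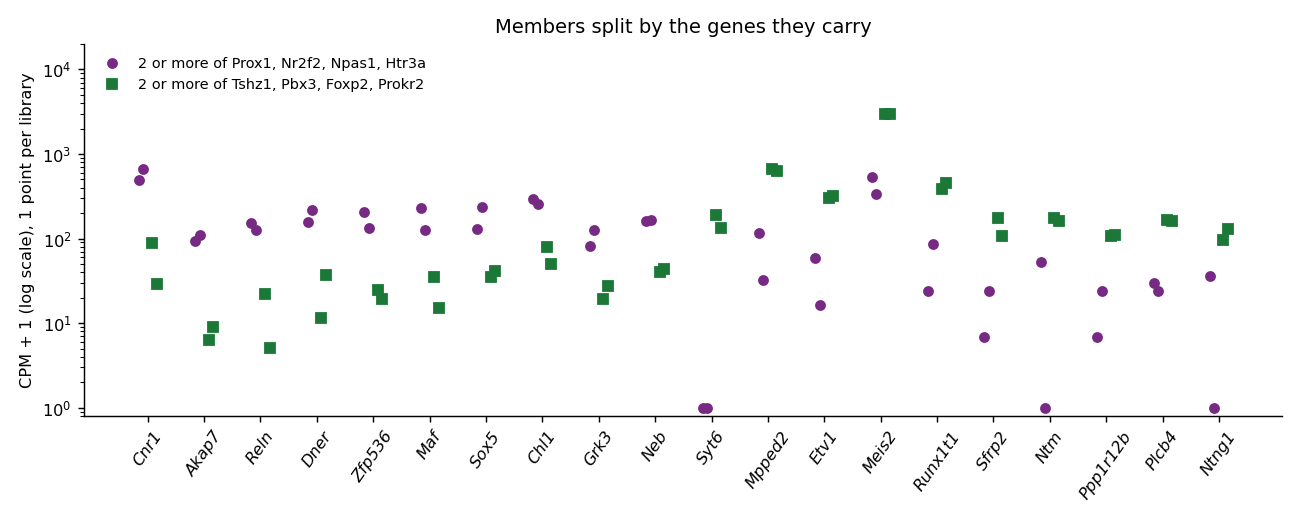
Level (CPM + 1, log axis), with a point per library, of the genes that differ most between Adarb2+ Gad+ cells with at least 2 of Prox1, Nr2f2, Npas1 and Htr3a (circles) and those with at least 2 of Tshz1, Pbx3, Foxp2 and Prokr2 (squares), cells with both left out. Cnr1, Reln and Maf are higher in circles and Syt6, Mpped2, Etv1 and Meis2 in squares, with no overlap between libraries; genes were picked for this difference.

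Against the Lhx6+ Gad+ cells, 282 of 9310 genes were higher (3.03%) and 340 lower (3.65%) in the Adarb2+ Gad+ cells, with 33 Lhx6+ Gad+ cells in each library as the limit on precision. Of 14 CGE transcription factors 8 were higher and 0 lower, and of 10 olfactory bulb genes 7 were higher and 0 lower. Of 11 MGE genes 0 were higher and 9 lower, and of 9 subtype genes 1 was higher and 3 lower. The class rules bear on these counts. Lhx6 was asked for in the Lhx6+ Gad+ cells and set to 0 in the Adarb2+ Gad+ cells, where Sst was limited too. Sp8 was set to 0 in the Lhx6+ Gad+ cells alone. The lower MGE genes and higher bulb genes may thus in part describe the choice. Prox1 stood at 84.6 and 114 CPM against 20.5 and 4.95 CPM (log2 fold change 3.18 ± 0.519, adjusted p = 6.37e-05), Pbx3 at 457 and 506 CPM against 20.5 and 9.89 CPM (5.12 ± 0.350, adjusted p = 1.15e-12), and Meis2 at 1845 and 2047 CPM against 362 and 193 CPM (2.94 ± 0.169, adjusted p = 1.36e-14). Genes of both the CGE and the bulb list were thus higher than in Lhx6+ Gad+ cells.

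Npy, a neuropeptide gene of many MGE interneurons and, on the subtype list, of neurogliaform cells, stood at 16.5 and 18.0 CPM against 18927 and 11121 CPM in Lhx6+ Gad+ cells (log2 fold change -9.67 ± 0.173, adjusted p = 2.26e-29). Nos1, the nitric oxide synthase gene, stood at 8.23 and 5.63 CPM against 259 and 297 CPM (-5.25 ± 0.425). Nxph2 had no UMI in the Adarb2+ Gad+ cells and was at least 44.9-fold lower, with 3 counts over both libraries as the floor. Nr2f2 was higher at a log2 fold change of 3.43, with 0 CPM in replicate 2 of the Lhx6+ Gad+ cells. Of 16 glutamate receptor subunits 1 was higher and 9 lower, of 9 GABA receptor subunits 0 and 3, and of 19 immature neuron genes 9 and 2.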

How the data were processed

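The deposited values are unscaled UMI counts for each gene in each called cell, written by Cell Ranger 6.0.2 per the file headers. Seurat 4.1.0, R 4.1.0 and mm10 appear in the submitters' processing notes, where no role is stated for them, and no annotation release is stated in the sources used here. The files hold 32285 genes, 13858 barcodes with 97091962 UMIs in replicate 1 and 14513 with 108903409 in replicate 2; 11228 (81.0%) and 10965 (75.6%) barcodes passed the gene and mitochondrial filters. No column was left unused.

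Each class was summed within each library, and edgeR 4.0.16 under R 4.3.3 tested the 6 sums (TMM, filterByExpr, quasi-likelihood test, Benjamini-Hochberg over all genes), with the library as a block and 2 residual degrees of freedom. The library pairs the classes because they come from the same sorted cells; deviations of same-numbered sums correlated at -0.0172 with Sp8 neuroblasts and 0.0182 with Lhx6+ Gad+ cells. The 9 genes of the class rules were kept out of counts of calls. Thinning to 2000 UMIs left out 42 and 19 of the Adarb2+ Gad+ cells. Scrublet, as run in scanpy 1.11.5 at an expected rate of 10%, marked 7.68% and 7.10% of barcodes and was used as an alternative. DESeq2 1.42.0 was another. The pipeline was tested on simulated data. Gene positions are from GENCODE M21 on GRCm38, the build that mm10 names.

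Genes were named by rule: the 10 largest called changes each way with at least 20 CPM, the called extremes of each list, and every measured CGE factor and subtype gene. Other genes named (Tshz1, Grin2b, Scn3a, Plxna4, Epha5, Dcx, Tubb3, Mcm5, Pax6, Etv1, Zic1 and those of the split) were chosen after their values were seen. Members and lists were chosen with earlier results of these data known. Some genes that this rule names are not reported here.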

Additional observations from a re-analysis of the deposited data

How the results depend on the processing

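Against Sp8 neuroblasts 2622 genes were called in all. The total was 2613 with DESeq2's size factors, 2625 without marked doublets, 2585 without barcodes with glial UMIs, an alternative chosen after seeing the data, 3259 with the 2 classes alone, 3322 with 6 classes, 2044 with at least 3 Adarb2 UMIs and 1989 at 5% mitochondrial UMIs. With no filter on low counts 961 were higher and 1663 lower. It was 1029 under the same exclusions, 906 with DESeq2 and 1133 to 1147 with a library of the Adarb2+ Gad+ cells left out. Without the replicate block it was 2396, so the pairing moved no count of calls by over 1.5 times; among genes named by rule it changed the calls of Sox11, Cox5a and Slc1a3 against Sp8 neuroblasts and of Npas1, Slc32a1, Gria2 and Cntnap2 against Lhx6+ Gad+ cells, and no other. Against Lhx6+ Gad+ cells 622 were called, 543 without the block, 402 at 5% mitochondrial UMIs, 349 with DESeq2 and 289 to 354 with a library left out. The cause of these shifts was not tested, and 33 Lhx6+ Gad+ cells per library limit the second contrast.

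The share of Adarb2+ Gad+ cells, 1.60%, was 2.60% at 1 Adarb2 UMI, 1.06% at 3, 1.48% at 5% mitochondrial UMIs, 1.67% without marked doublets, and 1.56 to 1.65% with a library left out. The share with a subtype gene, 55.3%, was 41.9% at 1000 UMIs, 74.5% unthinned, 56.4% at 3 Adarb2 UMIs, 53.9% without doublets, and 54.6 to 55.9% with a library left out. The share with 2 CGE markers, 16.3%, was 12.7%, 37.5%, 18.0% and 15.9% in the first 4 of these, and that with 2 bulb markers, 77.3%, was 61.6%, 86.2% and 71.9% in the first 3.

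Log2 fold changes called in at least 1 of the settings compared turned for Htr3a (-0.14), Nrxn3 (-0.058), Gria3 (0.89) and Pcdh11x (0.43) under the same exclusions, Calb2 there (-0.82) and at 3 Adarb2 UMIs (-0.77), Ier3 without doublets (-0.71) and without glial barcodes (-0.35), Slc1a3 without glial barcodes (0.19), Olig1 against Lhx6+ Gad+ cells without them (0.38), and C1qa (-3.98 to 6.25) and C1qc (-8.91 to 6.46) with a library of the Adarb2+ Gad+ cells left out, the lower value without replicate 1. Of the other gene values under alternatives, 840 against Sp8 neuroblasts and 704 against Lhx6+ Gad+ cells kept their side of the threshold (with 10 and 9 sign changes among values called in neither setting, such as those of Nfix and Nfib under the same exclusions), 96 and 69 fell below it, and 20 and 7 passed it.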

Other observations

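The Adarb2+ Gad+ cells with and without a Sp8 UMI differed in level of some genes, given here as values with no test, since Sp8 detection depends on depth. Median depth was 5328 and 5401 UMIs in those with Sp8 and 2887 and 4685 UMIs in those without. Foxp2, the forkhead factor, stood at 68.4 and 49.9 CPM with Sp8 and 175 and 373 CPM without, and Syt6 at 36.5 and 45.5 CPM with Sp8 and 136 and 112 CPM without. Pbx3 stood at 381 and 423 CPM with Sp8 and 539 and 595 CPM without. Htr3a ran the other way, at 57.0 and 56.4 CPM with Sp8 and 31.5 and 21.1 CPM without, and Prox1 stood at 79.9 and 108 CPM with Sp8 and 89.8 and 120 CPM without. For Foxp2, Syt6, Pbx3 and Htr3a the libraries of these groups did not overlap. No rule set in advance chose the genes named for this split, so the lack of overlap is a description only.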
